A study of Mus musculus with 2 samples.

Results

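The 10 genes described here were listed for the step in which dividing progenitors of the mouse forebrain commit to making neurons: Eomes, Insm1, Btg1, Btg2, Gadd45g, Nhlh1, Rnd2, Rcor2, Tfap2c and Mfap4. They were taken by gene symbol, each matched 1 Ensembl identifier, and they are 10 of the 21460 protein-coding genes of the nuclear genome in the deposited gene tables. The study has a single group, forebrain of healthy B6NCrl mice at embryonic day 13.5, with tissue pooled from males and females, and it holds 2 libraries, biological replicates 1 and 2. Total RNA longer than 200 bases was extracted with mirVana, 10 ng entered each library, and spike-in RNA was added. With 1 group the data hold no condition to compare, so levels, shares and the spread between libraries are described and no p-value is given. Both replicates carry the same donor code in the labels, so the SD of 2 libraries may be partly technical.

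The neocortex and the ganglionic eminences at this stage hold apical progenitors at the ventricle, which renew themselves, and intermediate (basal) progenitors, which have left the ventricular surface and mostly divide to give neurons. Proneural basic helix-loop-helix factors start commitment, and their targets include transcription factors, antiproliferative proteins that accompany exit from the cell cycle, and regulators of cell movement. In mouse cortex Eomes defines the intermediate progenitor, Insm1 promotes its formation, and Btg2 is known as a mark of progenitors that divide to make neurons. The values come from whole tissue, in which fewer cells of a type and less RNA per cell cannot be told apart.

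The libraries hold 35378462 estimated counts (replicate 1) and 36793284 (replicate 2). Markers of apical progenitors (14 of 14) and of neurons (12 of 12) were at 1 TPM or more in both, and so were the 3 forebrain genes looked at, Lhx2, Emx2 and Six3. None of 5 midbrain and hindbrain genes reached 1 TPM in either library, and they summed to 0.21 TPM in replicate 1, against 0.16 TPM in replicate 2. TPM is a relative transcript abundance, a level per transcript length on which genes can be compared.

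Proneural factors bind the E-box, CANNTG, so the promoters of members were searched for it. RefSeq promoter windows on GRCm38.p6, from 250 bases before the annotated start to 50 after it, were found for 6 members; Insm1, Rnd2, Tfap2c and Mfap4 had no entry. The motif reads the same on both strands, and it was present in 72.3% of the 32851 mouse promoters of the same length. Of the 6 promoters, 3 held it: Gadd45g with 3 matches, Nhlh1 with 2 and Rcor2 with 1, while those of Btg1, Btg2 and Eomes held none. At least 3 matches were found in 17.6% of all promoters and at least 2 in 39.6%. The match nearest the start of Gadd45g was CAGCTG, which was found in 16.3% of all promoters; the word CACGTG lay farthest from the start. Those at Nhlh1 were CAGATG, found with its reverse complement CATCTG in 17.2% of all promoters, and CAGGTG. The promoters of the most and the least abundant member, Gadd45g and Nhlh1, are shown with that of Eomes, which defines the cell type, and that of Rcor2, whose annotated start lies far from its main transcripts. Each is written 5′ to 3′ in the direction of its gene, and the capitals mark CANNTG.
Gadd45g, chr13:51846425-51846724, plus strand: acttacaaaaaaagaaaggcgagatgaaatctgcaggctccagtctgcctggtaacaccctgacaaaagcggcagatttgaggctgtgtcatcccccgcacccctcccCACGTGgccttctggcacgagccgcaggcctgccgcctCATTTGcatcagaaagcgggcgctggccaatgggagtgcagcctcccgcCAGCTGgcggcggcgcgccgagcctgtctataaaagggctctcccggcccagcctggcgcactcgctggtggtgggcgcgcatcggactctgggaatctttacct
Nhlh1, chr1:172057547-172057846, minus strand: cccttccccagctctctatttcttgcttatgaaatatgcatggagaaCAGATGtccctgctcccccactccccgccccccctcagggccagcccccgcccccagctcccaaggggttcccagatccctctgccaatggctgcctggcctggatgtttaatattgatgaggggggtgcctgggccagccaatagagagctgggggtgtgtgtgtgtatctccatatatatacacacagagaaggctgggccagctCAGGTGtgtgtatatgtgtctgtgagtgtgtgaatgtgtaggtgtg
Eomes, chr9:118477939-118478238, plus strand: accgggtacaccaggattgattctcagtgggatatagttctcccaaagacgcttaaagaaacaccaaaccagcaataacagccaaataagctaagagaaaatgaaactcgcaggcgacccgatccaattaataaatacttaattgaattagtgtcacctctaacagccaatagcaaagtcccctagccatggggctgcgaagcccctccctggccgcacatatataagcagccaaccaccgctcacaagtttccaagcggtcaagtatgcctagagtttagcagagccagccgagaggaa
Rcor2, chr19:7267144-7267443, plus strand: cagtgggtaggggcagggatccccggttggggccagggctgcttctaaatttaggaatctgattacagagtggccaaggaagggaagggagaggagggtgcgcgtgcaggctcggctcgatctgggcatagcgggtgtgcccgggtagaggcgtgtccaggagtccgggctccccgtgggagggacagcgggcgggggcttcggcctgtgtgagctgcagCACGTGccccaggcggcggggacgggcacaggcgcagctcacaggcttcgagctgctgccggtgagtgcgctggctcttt
A match is a string of letters and not a measured binding site. The G+C content of these windows was 62.3% at Gadd45g, 56.3% at Nhlh1, 47.3% at Eomes and 67.3% at Rcor2, against a median of 52.7% over all promoters.

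All 10 members were detected with 321 to 6414 estimated counts in a library. Their levels were spread from 6.24 to 201.9 TPM, with a median of 44.7 ± 0.788 TPM (SD of the medians of 2 libraries). In comparison, the 12651 protein-coding genes at 1 TPM or more in both libraries had a median level of 20.1 TPM. From the highest to the lowest mean the order was Gadd45g, Rnd2, Btg2, Rcor2, Mfap4, Btg1, Tfap2c, Eomes, Insm1 and Nhlh1. Gadd45g, Rnd2 and Btg2 were at 100 TPM or more in both libraries, as were 7.37% of protein-coding genes. In none of the 9 neighbouring pairs of this order did the values of the 2 libraries overlap. Rcor2 and Mfap4 were nevertheless not separated: their deposited TPM intervals overlapped within a library, and the difference of 2.21 TPM was close to their combined SD of 2.12 TPM. What confidence level the deposited intervals have is not stated in the sources used here.

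**Figure D1:**
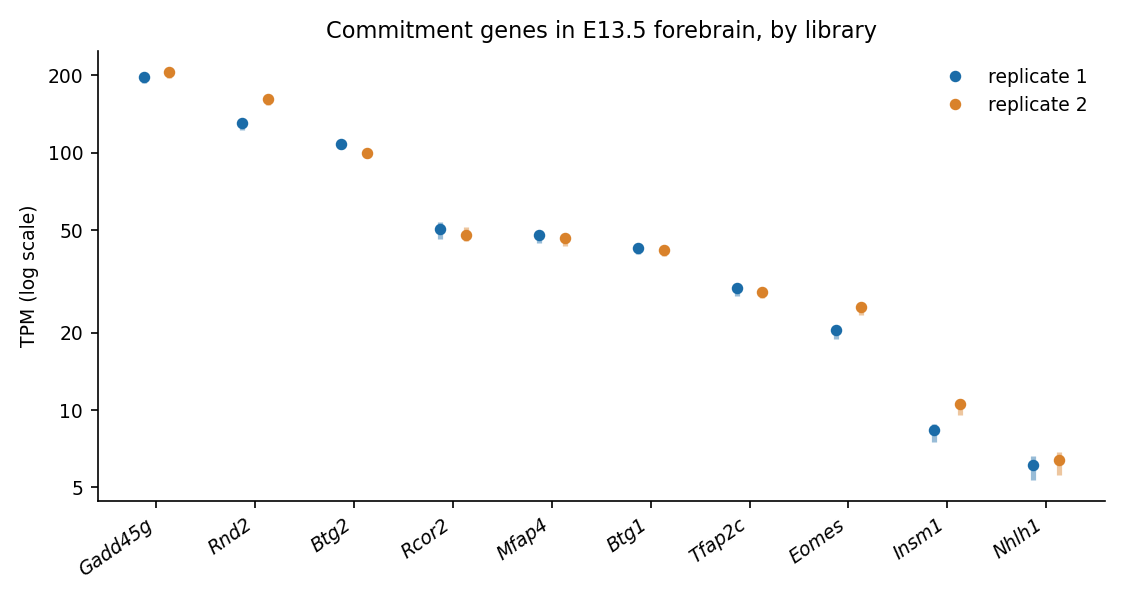
TPM (log scale) of each member in replicate 1 (left point) and replicate 2 (right point), with the deposited TPM interval as a bar. Levels run from 201.9 TPM for Gadd45g to 6.24 TPM for Nhlh1. The intervals of the libraries do not overlap for Rnd2, Btg2, Eomes and Insm1, nor for 30.3% of all genes that passed the count minimum.

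Among the transcription factors, Eomes (chr9:118478212-118486132, plus strand, mm10), the T-box factor also called Tbr2, was at 20.47 TPM in replicate 1, against 25.18 TPM in replicate 2, a mean of 22.8 ± 3.33 TPM (SD, n = 2). Its level was above that of 70.1% of protein-coding genes in replicate 1 and 74.8% in replicate 2. The deposited intervals of 18.9 to 21.1 TPM in replicate 1 and 23.5 to 25.8 TPM in replicate 2 did not overlap. Tbr1, the T-box factor that follows Eomes in new cortical neurons and shares 56.1% of aligned residues with it, was at 30.47 TPM in replicate 1 and 37 TPM in replicate 2. Both were higher in replicate 2, and Eomes made up a near constant share of the summed TPM of Eomes, Tbr1 and Tbx21, 40.0% in replicate 1 and 40.4% in replicate 2. Tbx21, a T-box factor of lymphocytes, was close to 0, with a mean of 0.24 TPM.

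Eomes has 3 annotated transcripts. Eomes-201, which encodes 707 residues, carried 79.3% of the gene's TPM in replicate 1 and 78.3% in replicate 2. Eomes-203, annotated as incomplete, carried 14.0% in replicate 1 and 15.0% in replicate 2. Eomes-202 carried 6.69% in replicate 1 and 6.71% in replicate 2. Its protein of 688 residues shares the first 462 and the last 226 with Eomes-201 and lacks 19 between them. The main form, Eomes-201, starts 155 bases downstream of the RefSeq start of the promoter shown, Eomes-202 starts 23 bases downstream and Eomes-203 672 bases. An antisense gene, Gm33460, which matches Eomes over 119 bases, was not analysed here. The sources used here do not say whether strand entered the counting.

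Insm1 (chr2:146221921-146225020, plus strand) is a zinc-finger repressor. It was at 8.36 TPM in replicate 1, against 10.52 TPM in replicate 2, a mean of 9.44 ± 1.53 TPM (SD, n = 2). The deposited intervals, 7.5 to 8.84 TPM in replicate 1 and 9.56 to 11.0 TPM in replicate 2, did not overlap. Insm2, its only close relative here, with 56.1% of aligned residues the same, was lower than Insm1 in both libraries, at 1.74 TPM in replicate 1, against 0.77 TPM in replicate 2. The pair differed between the libraries in opposite directions, so the share of Insm1 in their sum was 82.8% in replicate 1 and 93.2% in replicate 2. Insm2 had only 116 estimated counts in replicate 1 and 56 in replicate 2, and its mean was under the minimum of 100. The difference in share rests in part on this low gene.

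Nhlh1 (chr1:172052292-172057573, minus strand), a basic helix-loop-helix factor of newly made neurons, was the lowest member. It was at 6.11 TPM in replicate 1 and 6.37 TPM in replicate 2, a mean of 6.24 ± 0.184 TPM (SD, n = 2), and its intervals overlapped. Its relative Nhlh2 (69.5% of aligned residues the same) was higher than Nhlh1 in both libraries, at 28.93 TPM in replicate 1 and 21.97 TPM in replicate 2. Nhlh1 therefore made up 17.4% of the summed TPM of the pair in replicate 1 and 22.5% in replicate 2. Nhlh2 was higher in replicate 1, with intervals that did not overlap, and Nhlh1 was close to equal. The E proteins with which such factors pair were all more abundant: Tcf4 averaged 311 ± 6.09 TPM, Tcf3 97.1 ± 5.78 TPM and Tcf12 68.0 ± 1.70 TPM (SD, n = 2 each).

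Tfap2c (chr2:172549593-172558622, plus strand), the AP-2 factor known in mouse cortex for its role in basal progenitors, was at 29.71 TPM in replicate 1 and 28.84 TPM in replicate 2, a mean of 29.3 ± 0.615 TPM (SD, n = 2). It was the main AP-2 gene, with 81.5% of the family's TPM in replicate 1 and 79.6% in replicate 2. Tfap2d and Tfap2b averaged 3.38 and 3.06 TPM, and Tfap2a and Tfap2e stayed below 1 TPM in both libraries. Of its 6 annotated transcripts, Tfap2c-201 (449 residues) carried 85.7% of the gene's TPM in replicate 1 and 86.2% in replicate 2. Tfap2c-202, which encodes 513 residues and shares the last 433 of them with Tfap2c-201, carried 8.85% in replicate 1 and 7.73% in replicate 2. These 2 forms differ at the start of the protein. Transcripts with no coding sequence held 5.45% in replicate 1 and 6.07% in replicate 2.

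Rcor2 (chr19:7267325-7275225, plus strand) encodes a CoREST protein, which links the histone demethylase Kdm1a to the deacetylases Hdac1 and Hdac2. It was at 50.72 TPM in replicate 1 and 48.04 TPM in replicate 2, a mean of 49.4 ± 1.90 TPM (SD, n = 2). Rcor2 was the main CoREST gene, with 66.4% of the family's TPM in replicate 1 and 67.4% in replicate 2, ahead of Rcor3 at 17.7 ± 1.44 TPM and Rcor1 at 6.78 ± 0.346 TPM (SD, n = 2 each). The enzymes of the complex were more abundant than Rcor2. Kdm1a averaged 71.3 ± 1.69 TPM, Hdac1 158 ± 4.00 TPM and Hdac2 382 ± 1.09 TPM, while Rest, the repressor of neuronal genes that recruits CoREST, averaged 10.1 ± 1.36 TPM (SD, n = 2 each).

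Rcor2 differed from the other members with several transcripts in having 2 protein-coding forms at comparable levels. Rcor2-201 (523 residues) carried 52.2% of its TPM in replicate 1 and 58.7% in replicate 2, and Rcor2-202 (479 residues) carried 40.6% in replicate 1 and 38.8% in replicate 2. The protein of Rcor2-202 matches the last 479 residues of Rcor2-201 and lacks the first 44. Rcor2-204, a short form annotated as incomplete, was at 6.17% in replicate 1 and listed at 0 in replicate 2. These forms start at different places: relative to the RefSeq start in the promoter shown, Rcor2-204 begins 69 bases upstream, Rcor2-201 begins 885 bases downstream and Rcor2-202 begins 2370 bases downstream. The window printed thus covers the start of the short form and not the starts of the 2 main ones. The length of Rcor2-201 in the deposited tables was 2801 bases, against 2823 bases in the annotation used for its position.

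**Figure D2:**
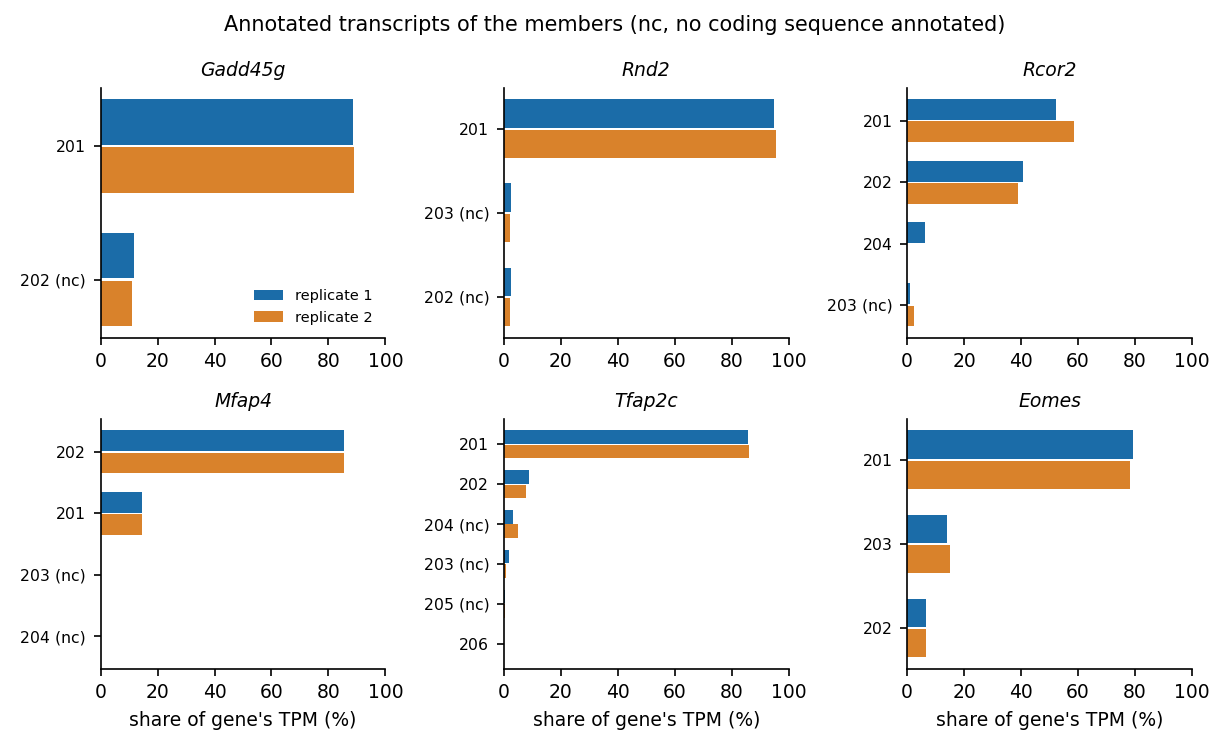
Share of a gene's summed transcript TPM (%) held by each annotated transcript of the 6 members with several, in replicate 1 (upper bar) and replicate 2 (lower bar). A single form held most of the TPM in 5 of them, from 78.3% (Eomes-201) to 95.7% (Rnd2-201) in replicate 2, while Rcor2 was split between 2 forms.

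The antiproliferative members accompany exit from the cell cycle. Gadd45g (chr13:51846678-51848468, plus strand), a small growth-arrest protein that activates the kinase Map3k4, was the most abundant member. It was at 197.36 TPM in replicate 1 and 206.49 TPM in replicate 2, a mean of 201.9 ± 6.46 TPM (SD, n = 2), above 96.5% of protein-coding genes in replicate 1 and 96.7% in replicate 2. The deposited intervals of the libraries overlapped. It held nearly all of the family's TPM, 91.7% in replicate 1 and 93.4% in replicate 2, with Gadd45a at 12.7 ± 2.01 TPM and Gadd45b at 3.48 ± 0.318 TPM (SD, n = 2 each). Map3k4 averaged 13.2 ± 1.11 TPM and Cdkn1a, the cell cycle inhibitor p21 to which Gadd45 proteins bind, 33.0 ± 7.21 TPM (SD, n = 2 each). A transcript of Gadd45g with a retained intron, Gadd45g-202, held 11.6% of its TPM in replicate 1 and 11.0% in replicate 2.

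Btg2 (chr1:134075170-134079120, minus strand) and Btg1 (chr10:96617006-96622809, plus strand) encode proteins that slow proliferation and recruit the deadenylases Cnot7 and Cnot8 to messenger RNA. Btg2 was at 108.46 TPM in replicate 1 and 100.08 TPM in replicate 2, a mean of 104 ± 5.93 TPM (SD, n = 2). It was the only member higher in replicate 1 with intervals that did not overlap, 103.1 to 108.4 TPM in replicate 1 and 95.4 to 100.2 TPM in replicate 2. Its value in replicate 1 lies just above its own interval, which is built around the posterior mean and not this estimate. Btg1 was at 42.73 TPM in replicate 1 and 41.84 TPM in replicate 2, a mean of 42.3 ± 0.629 TPM (SD, n = 2), with overlapping intervals. The 2 proteins share 65.2% of aligned residues.

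Across the BTG and TOB family, Btg2 held 48.5% of the summed TPM in replicate 1 and 46.7% in replicate 2, and Btg1 held 19.1% in replicate 1 and 19.5% in replicate 2. Of the estimated counts, Btg1 held 31.6% in replicate 1 and 32.5% in replicate 2. Tob1 (33.2 ± 0.636 TPM), Btg3 (23.4 ± 1.16 TPM) and Tob2 (15.7 ± 1.79 TPM; SD, n = 2 each) were all below Btg1. Btg4 had a count of 0 in both libraries. At 3 counts, the limit that a count of 0 leaves (counting error only), its level would be 0.111 TPM in replicate 1, against 0.102 TPM in replicate 2. The deadenylases were more abundant than Btg1, with Cnot7 at 167 ± 7.57 TPM and Cnot8 at 105 ± 4.39 TPM (SD, n = 2 each); Prmt1, a further partner, was not analysed here. Per length, Btg2 was above Btg1 by more than the library spread. Their estimated counts were nearer, 6375 for Btg2 and 4665 for Btg1 in replicate 1, since the Btg1 transcript in the deposited tables has 5010 bases and that of Btg2 has 2743. The processed pseudogene Gm14519, which matches 312 bases of Btg1 at 98.7% identity, was listed at 0 in both libraries.

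Rnd2 (chr11:101464999-101471853, plus strand), an atypical small GTPase that the proneural factor Neurog2 induces in mouse cortex and that controls the migration of new neurons, was the second most abundant member. It was at 130.1 TPM in replicate 1, against 161.81 TPM in replicate 2, a mean of 146 ± 22.4 TPM (SD, n = 2), and its intervals, 123 to 131 TPM in replicate 1 and 154 to 163 TPM in replicate 2, did not overlap. Rnd3, which also acts in cortical migration in the mouse and shares 63.9% of aligned residues with Rnd2, was at 173.81 TPM in replicate 1, against 163.17 TPM in replicate 2. Its log2 ratio was 0.09 by TPM, opposite in sign to that of Rnd2, but -0.03 with TMM scaling, the same sign as Rnd2 (-0.44). The share of Rnd2 in the summed TPM of the family was 42.0% in replicate 1 and 49.0% in replicate 2; of the estimated counts, which are not per length, it was 25.6% in replicate 1 and 31.5% in replicate 2. Rnd1 averaged 5.52 ± 0.537 TPM (SD, n = 2). Rnd3 was the higher of the 2 in both libraries, and in replicate 2 the values were nearly equal. Of the genes listed as possible partners of the Rnd family, Rhoa averaged 267 ± 3.14 TPM, the receptor Plxnb2 90.4 ± 17.9 TPM and the RhoA inhibitor Arhgap35 48.0 ± 2.06 TPM (SD, n = 2 each). The coding form Rnd2-201 held 95% of the gene's TPM in replicate 1 and 95.7% in replicate 2. Rnd2 shares the first 1232 bases of its locus with Vat1 on the other strand, which was at 51.51 TPM in replicate 1 and 55.03 TPM in replicate 2, and 585 of its bases match Gm4768 at 95.9% identity, a gene not analysed here. The overlap with Vat1 ends at base 101466230, before the start of Rnd2-201 at base 101468175, so it touches the noncoding transcripts of Rnd2. The estimated counts of Rnd2 (3716.83 in replicate 1, 5048.61 in replicate 2) and of Vat1 (3054.17 and 3557.39) were not whole, as when reads are divided between genes. The level of Rnd2 is to that extent uncertain. No entry of Gm4768 was found among the deposited genes, so reads from sequence shared with it may have counted for Rnd2.

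Mfap4 (chr11:61485431-61488900, plus strand) is a glycoprotein of the extracellular matrix that binds elastic fibres. It was at 47.84 TPM in replicate 1 and 46.5 TPM in replicate 2, a mean of 47.2 ± 0.948 TPM (SD, n = 2). Elastin (Eln) averaged 2.20 ± 0.148 TPM and fibrillin 1 (Fbn1) 1.42 ± 0.0212 TPM (SD, n = 2 each), whereas Mfap2, also a protein of elastic-fibre microfibrils, was above Mfap4 in both libraries. Of 9 markers of meningeal and mural mesenchyme, which also makes matrix proteins, 8 were at 1 TPM or more in both libraries, and none was at 0, the lowest being Foxc1 at 1.10 ± 0.403 TPM (SD, n = 2). Their summed level was 201 TPM in replicate 1, against 220 TPM in replicate 2. The part of these cells in the level of Mfap4 was not tested. The genes that share the Mfap name are not close relatives, with 20.99% (Mfap2) to 27.8% (Mfap3) of aligned residues the same as in Mfap4. Mfap2 averaged 217 ± 13.2 TPM, Mfap3 49.4 ± 0.771 TPM and Mfap5 0.910 ± 0.0707 TPM (SD, n = 2 each). The 2 coding transcripts, Mfap4-202 and Mfap4-201, held 85.3% and 14.7% in replicate 1 and 85.5% and 14.5% in replicate 2. The last 89 bases of Mfap4 overlap Mapk7 on the other strand, which was at 81.03 TPM in replicate 1 and 74.48 TPM in replicate 2.

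**Figure D3:**
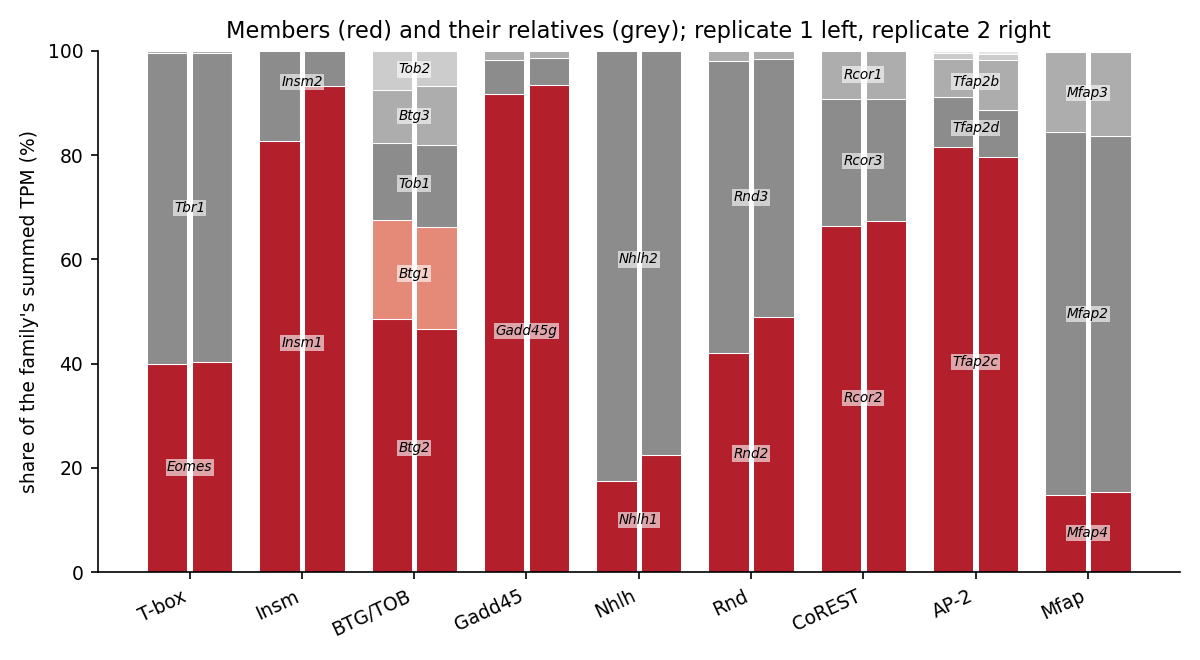
Share (%) of each gene in the summed TPM of its family, with members in red and the other genes in grey, replicate 1 in the left bar and replicate 2 in the right bar of each pair. Insm1, Gadd45g, Rcor2 and Tfap2c held most of their family's TPM in both libraries, Nhlh1 and Mfap4 at most 22.5%, and Eomes 40.0% and 40.4%.

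The libraries differed most for Rnd2, Insm1 and Eomes. The log2 ratio of TPM + 1, replicate 1 over replicate 2, was -0.31 for Rnd2, -0.30 for Insm1 and -0.29 for Eomes, and these absolute ratios were larger than those of 90.1%, 88.8% and 87.5% of the 11953 protein-coding genes with a mean estimated count of at least 100. The other 7 members had ratios between -0.06 (Gadd45g) and 0.11 (Btg2), and CVs of 1.49% to 5.68%, under the median CV of 6.72% over all genes. These ratios and CVs are not centred, and those of all genes include a shift between the libraries, a median log2 ratio of 0.10. Relative to that median, the 7 lay between -0.17 (Gadd45g) and 0.01 (Btg2), and Rnd2, Insm1 and Eomes at -0.41, -0.40 and -0.39. No member was past 1.5-fold in either direction; 1.09% of all genes were past it with the higher value in replicate 1 and 0.226% with the higher value in replicate 2. Deposited intervals that did not overlap were found for 1 member higher in replicate 1, Btg2, where 26.5% of all genes had such intervals. They were found for 3 members higher in replicate 2, where the share of all genes was 3.86%.

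How many members were higher in which library depended on the scaling. By TPM, 5 of 10 were higher in replicate 1 and 5 in replicate 2, with a median log2 ratio of -0.01. The median over all genes was 0.10, and 23.6% of all genes were higher in replicate 2. With estimated counts scaled by TMM (trimmed mean of M values), all 10 were below 0, with a median of -0.14, while the median of all genes was -0.01. Relative to the median of all genes, 9 of the 10 members lay on the replicate 2 side under both scalings, and Btg2 was the exception.

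**Figure D4:**
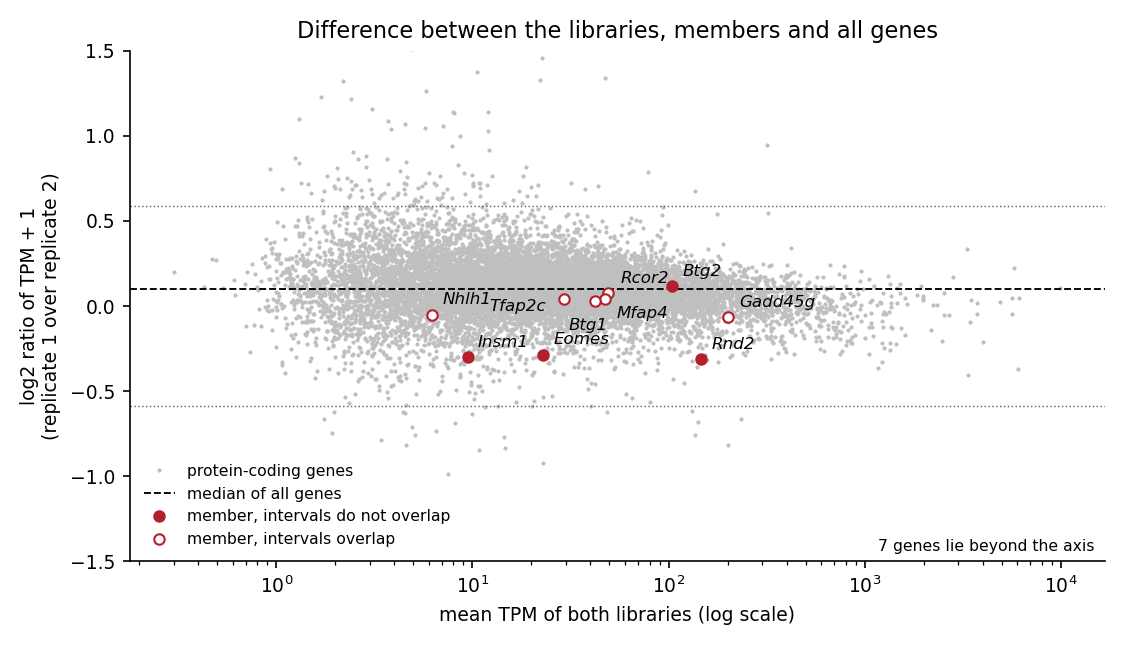
Log2 ratio of TPM + 1 (replicate 1 over replicate 2) against mean TPM (log scale) for the members and, in grey, 11953 protein-coding genes; dotted lines mark 1.5-fold and the dashed line the median of all genes, 0.10. Rnd2, Insm1 and Eomes lie near -0.30, with absolute ratios larger than those of 90.1%, 88.8% and 87.5% of the genes. The other 7 members lie nearer the dashed line, and 7 genes lie beyond the axis.

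Most genes of a dorsal forebrain list, which holds factors of cortical progenitors and excitatory neurons, were also higher in replicate 2. Of its 8 genes, 2 were higher in replicate 1 and 6 in replicate 2, with intervals that did not overlap for 2 and 5 of them and a summed level of 473 TPM in replicate 1 and 599 TPM in replicate 2. Among them Neurod6, a factor of new cortical excitatory neurons, was at 145.44 TPM in replicate 1 and 257.32 TPM in replicate 2, whereas Emx2, a factor of dorsal progenitors, was at 31.26 TPM in replicate 1 and 24.46 TPM in replicate 2. Of 8 ventral forebrain genes, 6 were likewise higher in replicate 2, with sums of 515 TPM in replicate 1 and 535 TPM in replicate 2. By TPM, most neuron and apical progenitor markers were higher in replicate 1, as were most of all genes (23.6% were higher in replicate 2). The median log2 ratios of these lists, 0.06 and 0.03, were below the 0.10 of all genes. Replicate 1 had the higher value for 8 of 12 neuron markers and replicate 2 for 4, with non-overlapping intervals for 5 and 3. For the 14 apical progenitor markers the split was 8 and 6, again with 5 and 3 such intervals. Of all genes, 26.5% had such intervals with the higher value in replicate 1 and 3.86% with the higher value in replicate 2. With TMM, 7 of the neuron and 9 of the apical progenitor markers were instead higher in replicate 2. Neurod6 and Neurod2 are in both the dorsal and the neuron list. All 5 choroid plexus markers were higher in replicate 1, with non-overlapping intervals and sums of 485 TPM in replicate 1, against 255 TPM in replicate 2. Of 9 markers of meningeal and mural mesenchyme, 2 were higher in replicate 1 and 7 in replicate 2, and the 4 with non-overlapping intervals were all higher in replicate 2. Of 6 endothelial markers, 2 were higher in replicate 1 and 4 in replicate 2, with sums of 81.3 TPM in replicate 1 and 87.3 TPM in replicate 2. Markers of surface and olfactory epithelium were low, with sums of 8.91 TPM in replicate 1, against 4.25 TPM in replicate 2, and Krt18, the only one of the 6 to pass the count minimum, was higher in replicate 1. The parts of these lists in the library differences of Rnd2, Insm1 and Eomes were not tested.

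All 16 other commitment genes were at 1 TPM or more in both libraries. The members had a median of 45.3 TPM in replicate 1 and 44.2 TPM in replicate 2, against 53.9 TPM in replicate 1 and 53.03 TPM in replicate 2 for these genes. The median log2(TPM + 1) of the members lay 0.25 below theirs in both libraries (-0.25 ± 0.0020; SD, n = 2). The highest were the high-mobility-group factors Sox11 at 756 ± 56.6 TPM and Sox4 at 157 ± 24.6 TPM, the Notch-pathway antagonist Hes6 at 264 ± 9.09 TPM and the proneural factor Neurog2 at 114 ± 16.2 TPM, and the lowest was Neurod4 at 3.80 ± 0.0990 TPM (SD, n = 2 each). This order is that of the means: Mfng, at 114 ± 0.636 TPM (SD, n = 2), was above Neurog2 in replicate 1, and Ppp1r17 was below Neurod4 in replicate 2. By TPM, 7 of the 16 were higher in replicate 1 and 9 in replicate 2, while with TMM 12 were higher in replicate 2, with a median log2 ratio of -0.14. Intervals did not overlap for 3 genes higher in replicate 1 (Hes6, Dll1 and Cdc25b) and for 4 genes higher in replicate 2 (Sox11, Sox4, Neurog2 and Sstr2). The shares of all genes were 26.5% and 3.86% in these directions.

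As a list, the members were less abundant than the markers of apical progenitors and those of neurons. Their median log2(TPM + 1) was below that of the apical progenitor markers by a difference of -0.63 ± 0.031 (SD, n = 2), -0.61 in replicate 1 and -0.66 in replicate 2. Against the neuron markers it was -2.30 ± 0.16 (SD, n = 2), -2.19 in replicate 1 and -2.42 in replicate 2. By mean level of each gene, the median of the 14 apical progenitor markers was 69.3 TPM, led by Fabp7, Vim, Hes5 and Id4, with Hes1 the lowest at 25.1 ± 0.127 TPM (SD, n = 2). The median of the 12 neuron markers was 221 TPM, led by Tubb3, Stmn2, Gap43 and Nsg2, with Rbfox3 the lowest at 27.1 ± 1.65 TPM (SD, n = 2). By mean level, Eomes, Insm1 and Nhlh1 were below the lowest gene of both marker lists, although Eomes and Hes1 were within the library spread of Eomes, and the highest, Gadd45g, was below the median of the neuron markers. The lists are of unequal length and were picked by role, so their medians describe these genes and not the numbers of cells.

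**Figure D5:**
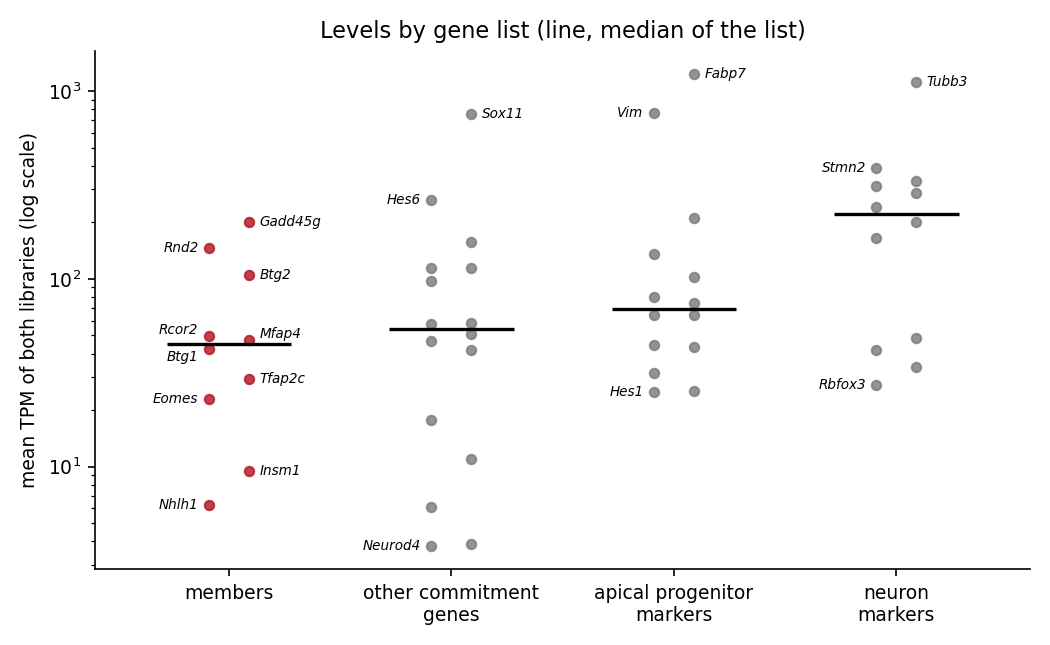
Mean TPM of both libraries (log scale) for the members (red) and 3 other gene lists (grey), with the median of each list as a line; members and the 2 highest and the lowest gene of the other lists are named. The medians were 44.7 TPM for the members, 54.4 TPM for other commitment genes, 69.3 TPM for apical progenitor markers and 221 TPM for neuron markers.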

How the data were processed

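The authors quantified alignments to the transcriptome (mm10, GENCODE M4), per the deposited metadata. The aligner, quantifier, read length and strandedness are not stated in the sources used here. The deposited expected counts are estimated counts per gene or transcript, so they need not be whole, per the file headers, and the deposited TPM values are levels per length over all rows, spike-ins included. The deposited interval bounds of TPM (a signal per feature) were used as the authors gave them. The authors also give each transcript as a percent of its gene; shares in the text were computed again from transcript TPM and differed from it by at most 0.0205 percentage points.

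Each gene table has 69691 rows; 42462 of 43346 mouse genes matched GENCODE M21 (GRCm38) by identifier, which gave symbols and coordinates. Precision is limited by 2 libraries, of 35378462 and 36793284 estimated counts. The labels give 1 group, so no test was made. Ratios used log2(TPM + 1), replicate 1 over replicate 2, for genes averaging 100 expected counts or more; the pseudocount understates ratios of low genes. TMM (edgeR 4.0.16) and size factors (DESeq2 1.42.0, R 4.3.3) on rounded counts of all mouse genes served only as alternative scalings. They were run on simulated data too, but only for genes averaging 100 counts or more. That simulation does not cover the setting used here. Counts of genes higher in a library cover genes that passed the count minimum. Protein identity came from alignments of GENCODE M21 translations (Biopython 1.88) and near-identical copies from BLAST 2.17.0 (at least 95% identity over 100 bases). Promoter sequences are from RefSeq (GRCm38.p6).

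The members and lists were chosen with earlier results of these data known. All members, families and partners are named, and from the other commitment, progenitor and neuron lists the 4 highest genes and the lowest; other genes named from lists, and the dorsal, ventral, forebrain and hindbrain lists, were chosen after values were seen. Alternatives were other scalings, pseudocounts, folds and filters, posterior mean TPM and leaving out a library.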

Additional observations from a re-analysis of the deposited data

How the results depend on the processing

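The median level of the members was 43.9 TPM with the deposited posterior mean and 55.7 TPM when TPM was rescaled over protein-coding genes, against 44.7 TPM as reported; without a replicate it was 44.2 to 45.3 TPM. The median log2 ratio between the libraries, -0.01 as reported, was -0.14 with TMM and -0.16 with DESeq2 size factors. The size factors were 1 in both libraries, so they left the counts unscaled. TMM gave the libraries nearly equal sizes, so these settings are close to the same and are not independent checks. The median ratio was -0.11 relative to the median of all genes, an alternative chosen after seeing the data. The count of 0 members past 1.5-fold was also 0 under the 6 alternatives run (a lower and a higher fold, no count filter, TMM, size factors, posterior mean). Of these, the higher fold and no count filter could not raise it, since all 10 members passed the filter. The count of 4 members with non-overlapping intervals was 4 with no count filter, and for the same reason could not change. Of all genes that passed the filter, 30.3% had such intervals. With means in place of medians of log2 values, the members lay at -1.12 relative to apical progenitor markers and -1.89 relative to neuron markers; without a replicate the differences of medians were -0.66 to -0.61 and -2.42 to -2.19. Family shares from expected counts, which are not per length, moved for 7 of 10 members by more than the spread between libraries, and by over 1.5 times for 2: Rnd2, at 28.5% in place of 45.5%, and Btg1, at 32.0% in place of 19.3%.

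No paired analysis was possible because the series has 1 group. Depth does not limit detection of the members, all above 300 estimated counts; 2 libraries limit what can be said of their spread.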
